A study of Mus musculus with 50 samples.

Results

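The immunoproteasome and the class I peptide-loading pathway were followed through 10 genes, taken by symbol: Psmb8, Psmb9 and Psmb10, Psme1 and Psme2, Tap1, Tap2 and Tapbp, B2m and Nlrc5. Of these 10, 9 were measured here among 19494 genes with a symbol. Nlrc5, the transactivator of class I genes, was not analysed here because the probe-to-gene table used does not list it. The genes were named by symbol and not by a threshold on their values, but with earlier results of these data known. Their counts against all genes are therefore descriptions and not an independent test.

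Colon RNA from 50 mice aged 10 to 12 weeks was hybridised to 1 array per mouse, with 5 mice in each of 10 groups. In the first block of array titles, numbered 1 to 30, the groups were Fadd fl/fl, FADD IEC-KO alone, with Zbp1 -/- or with Mlkl -/-, and CASP8 IEC-KO alone or with Mlkl -/-. In the second block, numbered 86 to 124, they were Casp8 fl/fl, CASP8 IEC-KO, FADD IEC-KO, and FADD IEC-KO combined with RIPK3 IEC-KO. IEC-KO stands for a knockout in intestinal epithelial cells, Zbp1 -/- and Mlkl -/- are written as knockouts without that restriction, and fl/fl marks the floxed allele of the control mice. The labels name no Cre line, and they do not say what sets the title blocks apart. FADD IEC-KO of arrays 86 to 124 had only Casp8 fl/fl as a floxed control, and CASP8 IEC-KO of arrays 1 to 30 had only Fadd fl/fl, so line and block cannot be told apart there. The RNA came from whole colon tissue, in which fewer cells of a type and less RNA per cell cannot be told apart, and which also holds the cells in which Fadd and Casp8 were not deleted.

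Cytosolic proteins are cut into peptides by the proteasome, a barrel whose 3 constitutive catalytic subunits are encoded by Psmb5, Psmb6 and Psmb7. Interferon gamma induces replacement subunits encoded by Psmb8 (LMP7), Psmb9 (LMP2) and Psmb10 (MECL-1), which form the immunoproteasome, and the PA28 activator encoded by Psme1 and Psme2, which opens the barrel. The TAP1 and TAP2 transporter carries the peptides into the endoplasmic reticulum, tapasin (Tapbp) ties it to the class I molecule, and beta-2-microglobulin (B2m) is the light chain of every classical class I molecule. In the gut these genes respond to interferons released by lymphocytes and other cells. FADD and caspase-8 act together downstream of death receptors, and the loss of either frees RIPK3 and MLKL, with ZBP1 among the upstream sensors, to carry out necroptosis.

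Psmb9, Tap1, Psmb8 and Tap2 are consecutive genes on chromosome 17, and Psme1 and Psme2 lie 2 places apart on chromosome 14 in the RefSeq annotation of GRCm38.p6. Promoter windows, 250 bases before to 50 after a start site, were listed for 8 of the 10 genes in the RefSeq table of that build, and not for Tap2 and Nlrc5. The sequences shown are the bases shared by the divergent promoter of Psmb9 and Tap1, and the upstream bases of Psmb8 and B2m, the genes whose values carry most of what follows. Capitals mark the motifs searched on both strands: the interferon-stimulated response element core (GAAA, any 2 bases, GAAA), the gamma activated site TTCNNNGAA, CCAAT, an NF-kappaB motif (GGGA, any 4 bases, CC) and TGACG.
between Psmb9 and Tap1, chr17:34187331-34187555, plus strand, GRCm38.p6: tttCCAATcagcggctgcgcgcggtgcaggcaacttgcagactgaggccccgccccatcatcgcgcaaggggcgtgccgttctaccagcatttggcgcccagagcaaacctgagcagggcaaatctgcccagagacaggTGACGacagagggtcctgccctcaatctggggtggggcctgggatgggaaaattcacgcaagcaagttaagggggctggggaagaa
Psmb8 upstream, chr17:34198045-34198194, plus strand, GRCm38.p6: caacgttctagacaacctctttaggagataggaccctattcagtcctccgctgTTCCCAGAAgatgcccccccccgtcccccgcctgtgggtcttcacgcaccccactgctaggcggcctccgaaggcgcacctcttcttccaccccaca
B2m upstream, chr2:122147527-122147686, plus strand, GRCm38.p6: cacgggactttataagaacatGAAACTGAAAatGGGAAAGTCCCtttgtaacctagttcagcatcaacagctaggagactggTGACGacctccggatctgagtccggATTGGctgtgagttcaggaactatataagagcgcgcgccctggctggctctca

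The first of these runs is 225 bases long and is all that lies between the start sites of Psmb9, read from the minus strand, and Tap1, read from the plus strand, so both genes share its CCAAT and TGACG. The B2m bases hold the response element core, a pair of overlapping NF-kappaB matches on opposite strands, TGACG, and CCAAT on the minus strand, written there as ATTGG. The Psmb8 bases hold a single TTCNNNGAA. Of the 8 genes with a window, the response element core was found in 2 (Psme1 and B2m), TTCNNNGAA in 1 (Psmb8), CCAAT in 4 (Psmb9, Tap1, Tapbp and B2m), the NF-kappaB motif in 1 (B2m) and TGACG in 4 (Psmb9, Psme2, Tap1 and B2m). Among all 32851 windows the shares were 3.44%, 8.3%, 37.4%, 20.7% and 20.8% in the same order. A match is a description of letters and not of a bound site.

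**Figure D1:**
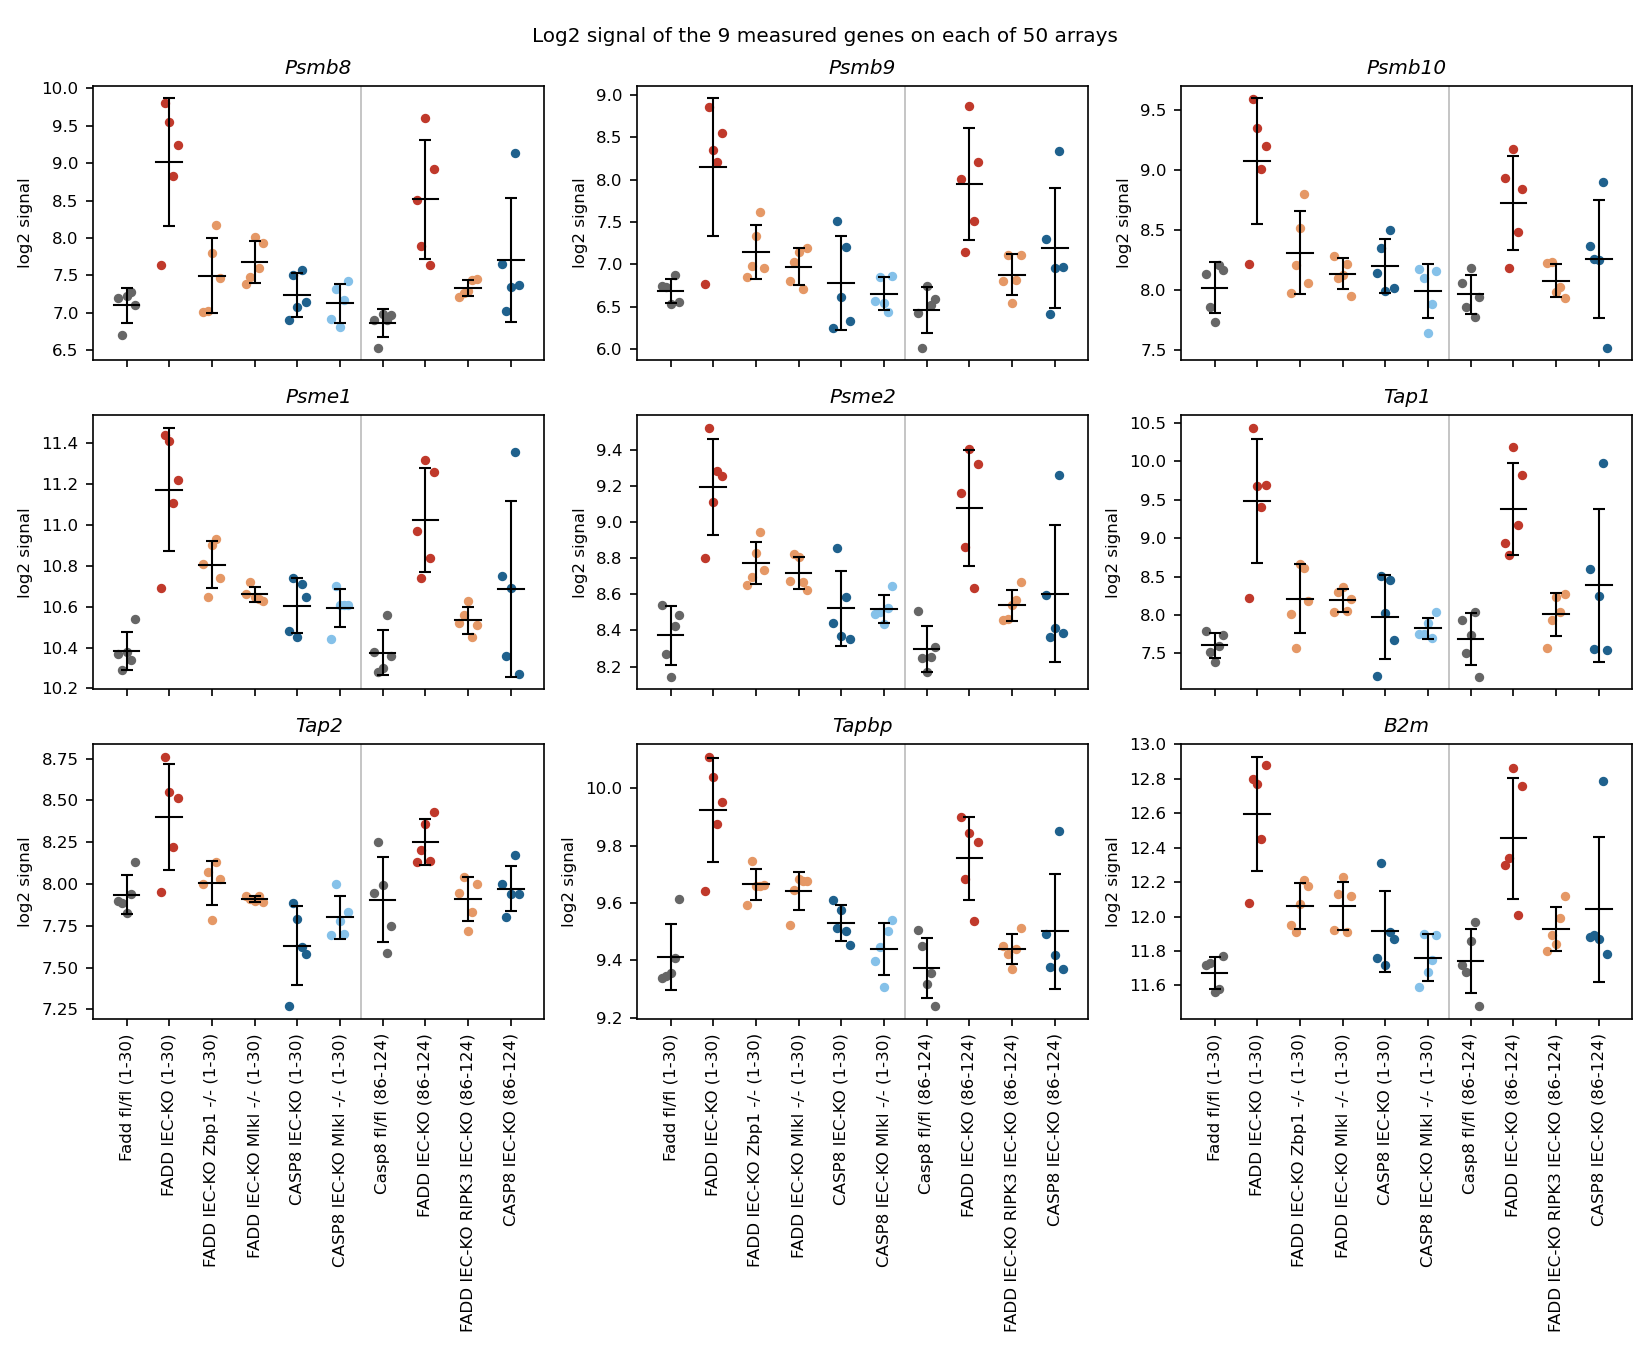
Log2 signal (vertical axis) of each measured gene on each array, with groups along the horizontal axis and title numbers in brackets; points are arrays (grey floxed, red FADD IEC-KO, orange its co-deletions, dark blue CASP8 IEC-KO, light blue its Mlkl co-deletion), and bars show the mean and SD of 5 arrays. Both FADD IEC-KO groups are highest for every gene, with 1 of their arrays, number 21, near the floxed arrays for Psmb9 and Tap2, and CASP8 IEC-KO array 104 stands above the other CASP8 IEC-KO arrays.

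Before the pathway was compared, the deleted genes were read on every array. Mean Fadd log2 signal was 6.14 to 6.39 in the groups with FADD IEC-KO against 7.30 and 7.38 in the floxed groups, and mean Casp8 was 8.98 to 9.14 in the groups with CASP8 IEC-KO against 10.32 and 10.50. Mlkl averaged 7.17 and 7.31 in the Mlkl -/- groups and 8.14 to 9.18 in the others. Zbp1 averaged 5.49 in FADD IEC-KO Zbp1 -/- and Ripk3 6.68 in FADD IEC-KO RIPK3 IEC-KO, both below the FADD IEC-KO mean of the same block (7.29 and 8.09) and within the range of the floxed groups' own arrays (Zbp1 5.36 to 5.96, Ripk3 6.36 to 7.07). Epithelial markers were bright in every group, with list means of 10.86 to 11.38 per array. Array medians lay between 6.41 and 6.47, and no 2 arrays correlated above 0.99414 over all genes, so none was counted as a repeat.

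In FADD IEC-KO colon every measured gene of the pathway was higher than in Fadd fl/fl colon, from 1.38-fold for Tap2 to 3.76-fold for Psmb8. All 9 of 9 passed the limma test at an adjusted p under 0.05, while 8.59% of all genes tested were called higher in this comparison. Their median log2 difference was 0.92, against -0.02 over all genes. On 7 of the 9 genes the FADD IEC-KO arrays lay wholly above the floxed arrays, which held for 4.23% of all genes.

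Among the catalytic subunits, Psmb8 had log2 signals of 7.64, 9.80, 9.55, 8.83 and 9.24 on FADD IEC-KO arrays 21 to 25, and 7.20, 6.70, 7.23, 7.28 and 7.11 on Fadd fl/fl arrays 26 to 30. Array 21 lay just above the highest floxed array, and the other 4 lay far above it. The log2 difference was 1.91 ± 0.308 (SE), with a limma adjusted p of 7.46e-05. Psmb9 read 6.77, 8.87, 8.35, 8.21 and 8.56 on FADD IEC-KO and 6.74, 6.73, 6.54, 6.88 and 6.56 on floxed arrays. Array 21 fell among the floxed values while the other 4 stayed above them, and the log2 difference was 1.46 ± 0.286 (2.75-fold, limma adjusted p 0.000425). Psmb10 ranged from 8.22 to 9.60 against 7.73 to 8.20, a log2 difference of 1.06 ± 0.192 (2.08-fold, limma adjusted p 0.000245), and its groups were separated by a narrow margin.

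The PA28 subunits rose by similar amounts. Psme1 ranged from 10.69 to 11.44 in FADD IEC-KO and from 10.29 to 10.54 in Fadd fl/fl, 1.73-fold higher, and Psme2 from 8.80 to 9.52 against 8.14 to 8.54, 1.77-fold higher. Neither gene's groups overlapped.

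Of the transporter subunits, Tap1 read 8.22, 10.44, 9.68, 9.41 and 9.69 on arrays 21 to 25 and 7.79, 7.52, 7.39, 7.60 and 7.73 on the floxed arrays, with no overlap and a log2 difference of 1.88 ± 0.316 (3.68-fold, limma adjusted p 0.000109). Tap2, its partner, read 7.95, 8.76, 8.55, 8.22 and 8.52 against 7.90, 7.89, 7.83, 7.94 and 8.13. Here array 21 again sat inside the floxed range, and the log2 difference was 0.46 ± 0.113 (limma adjusted p 0.00303). The tapasin gene Tapbp, with 9.64 to 10.11 against 9.34 to 9.61, rose 1.43-fold without overlap. B2m read 12.08, 12.80, 12.77, 12.45 and 12.88 against 11.72, 11.73, 11.56, 11.58 and 11.77, again without overlap, a log2 difference of 0.92 ± 0.148 (1.90-fold, limma adjusted p 7.23e-05).

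The same genotype in arrays 86 to 124, set against Casp8 fl/fl, also had all 9 of 9 genes higher by limma, where 6.80% of all genes tested were called higher. The median log2 difference was 0.76, against -0.03 over all genes. FADD IEC-KO arrays lay wholly above the floxed arrays on 7 genes, as on 4.51% of all genes. The groups overlapped on Psmb10 and Tap2. Because the arrays and the floxed line differ, this comparison shares no array with the first.

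Psmb8 read 8.51, 7.89, 9.60, 7.64 and 8.92 on FADD IEC-KO arrays 89, 95, 117, 120 and 124, and 6.91, 6.53, 6.98, 6.91 and 6.97 on Casp8 fl/fl arrays 86, 91, 98, 105 and 119. All 5 knockout arrays lay above all 5 floxed arrays, and the log2 difference was 1.65 ± 0.308 (3.15-fold, limma adjusted p 0.000386). Tap1, at 8.94, 8.77, 10.19, 9.18 and 9.83 against 7.93, 7.51, 7.74, 8.04 and 7.19, was separated likewise and rose 3.25-fold. Psmb9 rose 2.81-fold, with 7.14 to 8.88 against 6.01 to 6.74. The smaller differences were 1.71-fold for Psme2, 1.69-fold for Psmb10, 1.64-fold for B2m, 1.56-fold for Psme1 and 1.30-fold for Tapbp.

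Tap2 was the weakest of the 9 in this block, at 8.13 to 8.43 against 7.59 to 8.25, with a log2 difference of 0.35 ± 0.113 (limma adjusted p 0.0393). Its call was lost without FADD IEC-KO arrays 117 or 124 or without Casp8 fl/fl arrays 86, 105 or 119, where the limma adjusted p was 0.0524 to 0.14. It was also lost with the compared arrays alone, with quantile normalization and with variance weights per group (limma adjusted p 0.144, 0.0893 and 0.0662). In arrays 1 to 30 the call of Tap2 was lost with the compared arrays alone (limma adjusted p 0.0541) and without arrays 22 and 23 together (log2 difference 0.29, limma adjusted p 0.165), while the other 8 genes kept theirs. The difference between the effects of the blocks passed the limma test for 0 of 9 genes, and 0 of 9 had an unadjusted p under 0.05. It ranged from -0.29 to 0.03 on the log2 scale, with 0.123% of all genes called in either direction.

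**Figure D2:**
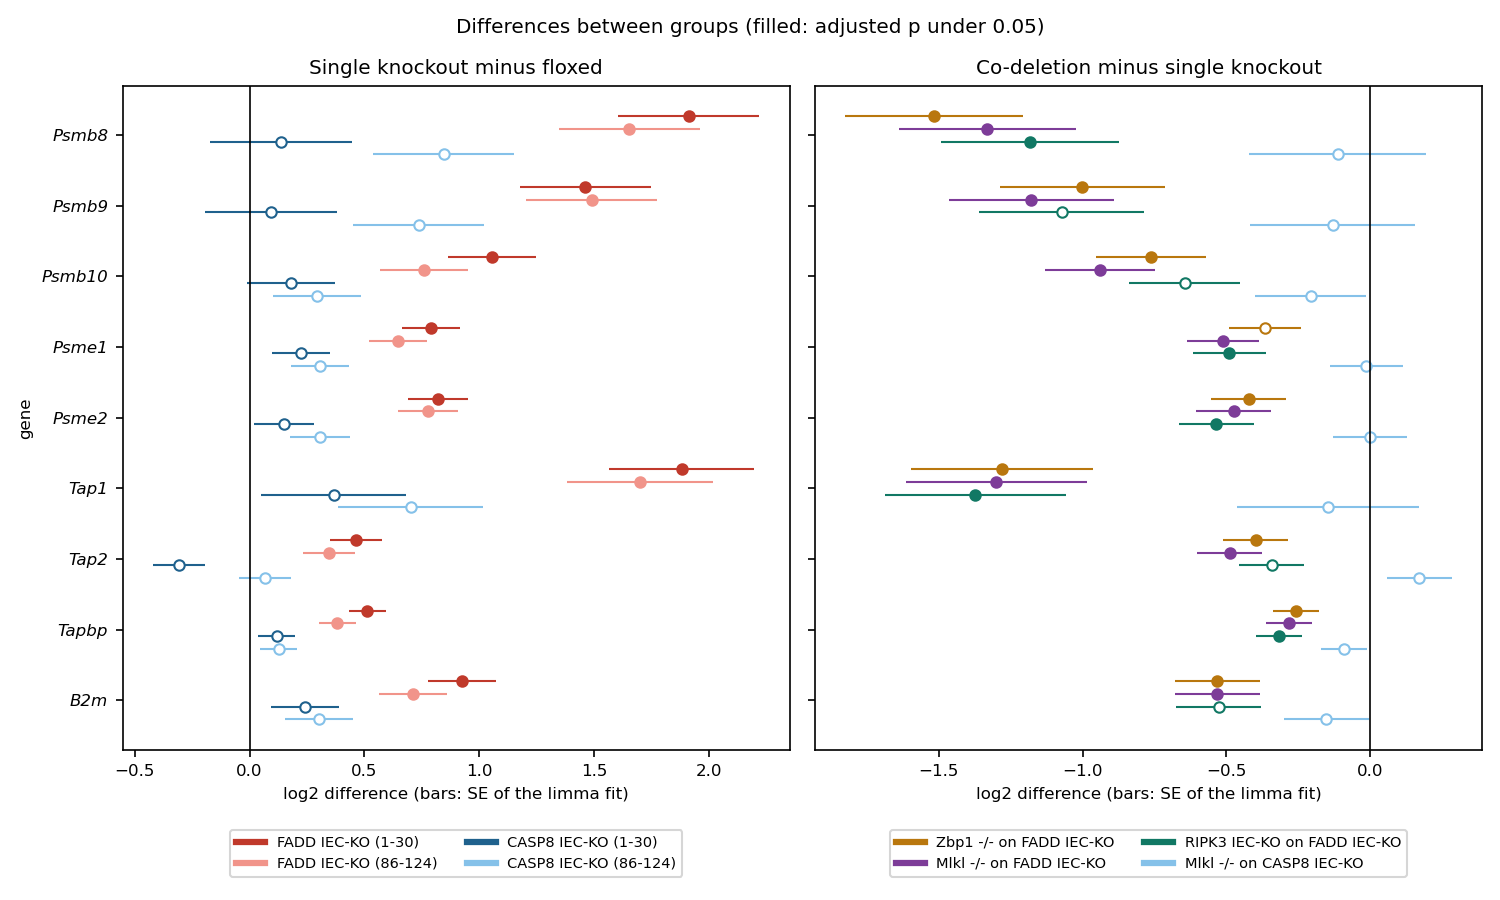
Log2 difference of each measured gene (horizontal axis) with the SE of the limma fit as bars and genes on the vertical axis, for single knockouts minus the floxed control of their block and for co-deletions minus the single knockout. Filled points passed an adjusted p under 0.05; all 9 genes are filled in both FADD IEC-KO comparisons and none is in the CASP8 IEC-KO comparisons.

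Loss of caspase-8 gave no called difference in any measured gene. In arrays 86 to 124, CASP8 IEC-KO minus Casp8 fl/fl had 0 of 9 genes called by limma, with 2.46% of all genes called in either direction. The differences were all above 0, from 0.07 for Tap2 to 0.85 ± 0.308 for Psmb8 (1.80-fold, limma adjusted p 0.119). At an unadjusted limma p under 0.05, 6 of 9 were higher, against 10.2% of all genes. Psmb8 was the only member whose groups did not overlap, where 1.68% of all genes lay wholly higher.

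Array 104 stood apart in this group. Psmb8 read 7.66, 7.02, 7.34, 9.14 and 7.37 on CASP8 IEC-KO arrays 87, 92, 100, 104 and 108, Tap1 8.59, 7.55, 8.25, 9.97 and 7.54, and B2m 11.88, 11.89, 11.87, 12.79 and 11.78. Array 104 was the highest of its group for all 9 genes, with a mean over the 9 of 9.75 against 8.56 to 8.96 on the others. Without it the log2 difference from Casp8 fl/fl was 0.49 for Psmb8, 0.45 for Psmb9, 0.30 for Tap1, 0.11 for B2m and 0.02 for Tap2, and 0 of 9 genes were called by limma. Without Casp8 fl/fl array 105 the difference of Tap2 was -0.01. On the same array the list means were 6.10 for neutrophil markers (4.63 to 5.05 on the other 4), 5.60 for T and cytotoxic lymphocyte markers (4.96 to 5.12) and 7.46 for macrophage markers (6.89 to 7.20). Their part in the level of the pathway was not tested. Leaving out array 108 instead, the lowest of the group for 5 of the 9 genes, brought Psme1 past the threshold at a log2 difference of 0.41 (limma adjusted p 0.0461). With each array left out in turn, 1 to 1070 of all genes were called in either direction, against 479 with all arrays.

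In arrays 1 to 30, CASP8 IEC-KO minus Fadd fl/fl had 0 of 9 genes called by limma, and 0.123% of all genes called in either direction. The median log2 difference was 0.15, from -0.31 for Tap2 to 0.37 for Tap1. Tap2 was also the sole member with an unadjusted p under 0.05, and it was lower (7.27 to 7.89 against 7.83 to 8.13, limma adjusted p 0.269). Among all genes, 6.34% were lower at that unadjusted p. Psmb8 read 6.90 to 7.57 against 6.70 to 7.28. The CASP8 effects differed between the blocks in 0 of 9 genes by limma, with 0.00513% of all genes called in either direction. At an unadjusted limma p under 0.05, 1 of 9 was higher, against 4.78% of all genes.

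Set against each other in arrays 1 to 30, the single knockouts differed in all 9 genes, each lower in CASP8 IEC-KO than in FADD IEC-KO, where 3.44% of all genes were called lower. Psmb8 was 3.42-fold lower, Tap1 2.86-fold and Psmb9 2.58-fold. Tap2 had the smallest limma adjusted p (4.35e-05) and a log2 difference of -0.77 ± 0.113. Tap2, Psmb8 and Tapbp lay wholly lower, as 1.55% of all genes did. With the spread estimated from these 10 arrays alone, 0 of 9 genes passed (limma adjusted p 0.119 to 0.139). In that setting 6 of all genes were called in either direction, against 1315 in the main fit. Without arrays 22 and 23, 1 of 9 passed, Tap2, with 18 of all genes called.

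In arrays 86 to 124 the same contrast gave 0 of 9 genes called by limma, with 0.164% of all genes called in either direction. All 9 were lower and had an unadjusted p under 0.05, against 5.06% of all genes, from -0.25 for Tapbp to -0.999 for Tap1. Without CASP8 IEC-KO array 104 the count was 6 of 9 (Psmb8, Psme1, Psme2, Tap1, Tapbp and B2m), and without FADD IEC-KO array 120 it was 1, Psme2. Leaving out each array in turn, 14 to 101 of all genes were called in either direction, against 32 with all arrays. This contrast differed between the blocks in 0 of 9 genes by limma, with 0.0616% of all genes called in either direction. At an unadjusted limma p under 0.05, 2 of 9 were higher, against 5.70% of all genes. The knockouts are therefore not shown to differ unequally in the blocks. Without FADD IEC-KO array 21, Tap2 passed that test (0.60, limma adjusted p 0.0419).

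Adding loss of Zbp1 to FADD IEC-KO lowered 8 of 9 genes by limma, with 5.14% of all genes called lower. Psmb8 read 7.01, 7.03, 7.80, 8.18 and 7.46 on FADD IEC-KO Zbp1 -/- arrays 1 to 5, against 7.64 to 9.80 in FADD IEC-KO, a log2 difference of -1.52 ± 0.308 (limma adjusted p 0.00168). Arrays 3 and 4 overlapped array 21 of the single knockout. Tap1 (8.02, 7.57, 8.66, 8.61 and 8.19) was 2.43-fold lower and Psmb9 2.00-fold lower. Psme1 missed the threshold, at 10.65 to 10.93 against 10.69 to 11.44 (log2 difference -0.37 ± 0.126, limma adjusted p 0.0512). Groups overlapped for all 9 genes, where 2.77% of all genes lay wholly lower.

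Loss of Mlkl in FADD IEC-KO lowered all 9 of 9 genes by limma, with 2.93% of all genes called lower. Psmb8 read 7.38, 7.48, 8.02, 7.59 and 7.93 on arrays 11 to 15, a log2 difference of -1.33 ± 0.308 (2.52-fold, limma adjusted p 0.00715) from FADD IEC-KO. Tap1, at 8.04 to 8.37, was 2.46-fold lower and Psmb10 1.92-fold lower. Tap2 lay within 7.89 to 7.93 on all 5 arrays and was the 1 member wholly lower (2.28% of all genes).

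Epithelial loss of RIPK3 lowered 5 of 9 genes against FADD IEC-KO of arrays 86 to 124, with 0.595% of all genes called lower. They were Tap1 (2.59-fold, limma adjusted p 0.0296), Psme2, Tapbp, Psme1 and Psmb8, the last at a limma adjusted p of 0.0496. Psmb8 read 7.21, 7.26, 7.29, 7.44 and 7.46 on arrays 88, 93, 112, 113 and 123, all below the 7.64 to 9.60 of FADD IEC-KO. Psmb9 (2.10-fold lower, limma adjusted p 0.0539), B2m, Psmb10 and Tap2 did not pass, although all 9 differences were negative. On 6 genes the co-deletion arrays lay wholly below FADD IEC-KO, against 1.94% of all genes.

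These 3 co-deletion comparisons share their FADD IEC-KO arrays within a block, and the calls rest on them. With the spread estimated from the compared arrays alone, 0 of 9 genes passed in each of the 3. The limma adjusted p for Psmb8 was then 0.061 for Zbp1, 0.0795 for Mlkl and 0.185 for RIPK3. Calls among all genes, in either direction, fell too, from 2096 to 184, from 1140 to 51 and from 147 to 22. Without array 22 the counts fell to 1 of 9 for Zbp1 and 2 of 9 for Mlkl. The Zbp1 count was 4 without array 23 or 25 and 5 without FADD IEC-KO Zbp1 -/- array 1. For RIPK3 the count was 0 without FADD IEC-KO array 117 or 124 or without co-deletion array 88, 93, 112 or 113, and 1 without array 89 or 123. It was 7 without array 95 or 120. Every difference of the 9 genes kept its negative sign. Calls among all genes, in either direction, also varied with each array left out in turn. They ranged from 835 to 3001 for Zbp1, 388 to 2156 for Mlkl and 24 to 411 for RIPK3.

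The co-deletions were also set against the floxed controls. FADD IEC-KO Zbp1 -/- minus Fadd fl/fl had 0 of 9 genes called by limma (1.07% of all genes called in either direction), with a median log2 difference of 0.40. Psme1 came nearest, 1.34-fold higher with a limma adjusted p of 0.0839. Psme1, Psme2 and B2m lay wholly above the floxed arrays (1.79% of all genes). With variance weights per group 3 of 9 passed (Psme1, Psme2 and Tapbp), and Psme1 also passed with the compared arrays alone and among the brightest 60% of genes. Without Fadd fl/fl array 30, Tapbp passed at 0.30 (limma adjusted p 0.0474).

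FADD IEC-KO Mlkl -/- minus Fadd fl/fl also had 0 of 9 called (0.159% of all genes called in either direction) and a median of 0.28. Psmb8, Psme1, Psme2, Tap1 and B2m lay wholly above the floxed arrays, 5 of 9 genes against 1.21% of all genes, while Tap2 was at 7.91 against 7.94. FADD IEC-KO RIPK3 IEC-KO minus Casp8 fl/fl had 0 of 9 called (0.0769% in either direction), a median of 0.18, and only Psmb8 wholly above (1.68%). An unadjusted p under 0.05 with a higher level was reached by 4, 4 and 0 of 9 genes in these 3 limma comparisons, against 5.93%, 3.97% and 6.12% of all genes. The first 2 share the floxed arrays with each other and with the FADD IEC-KO comparison. The Zbp1 and Mlkl co-deletions differed from each other in 0 of 9 genes by limma (0 of 9 at an unadjusted p under 0.05; 0.426% of all genes called in either direction), by -0.18 to 0.18.

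In CASP8 IEC-KO, loss of Mlkl moved no member past the threshold (0 of 9 by limma, 0 of 9 at an unadjusted p under 0.05; 0.421% of all genes called in either direction). Differences ran from -0.21 for Psmb10 to 0.17 for Tap2. Against Fadd fl/fl, CASP8 IEC-KO Mlkl -/- was likewise without a call (0 of 9 by limma, 0 of 9 at an unadjusted p under 0.05; 0.0462% called in either direction), with a median of 0.03. The Mlkl effects in the 2 knockouts differed by 1.22 ± 0.435 for Psmb8 and 0.66 ± 0.160 for Tap2 on the log2 scale, but 0 of 9 interactions passed by limma (adjusted p 0.285 and 0.135; 7 of 9 higher at an unadjusted p under 0.05, against 5.61% of all genes; 0.0154% of all genes called in either direction). Without FADD IEC-KO array 21 the interaction of Tap2 passed (0.77, limma adjusted p 0.0108). CASP8 IEC-KO Mlkl -/- minus FADD IEC-KO Mlkl -/- was called for 0 of 9 genes by limma (0.457% called in either direction). At an unadjusted limma p under 0.05, 2 of 9 were lower, against 5.30% of all genes. Tap1 and B2m lay wholly lower, as 2.59% of all genes did.

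**Figure D3:**
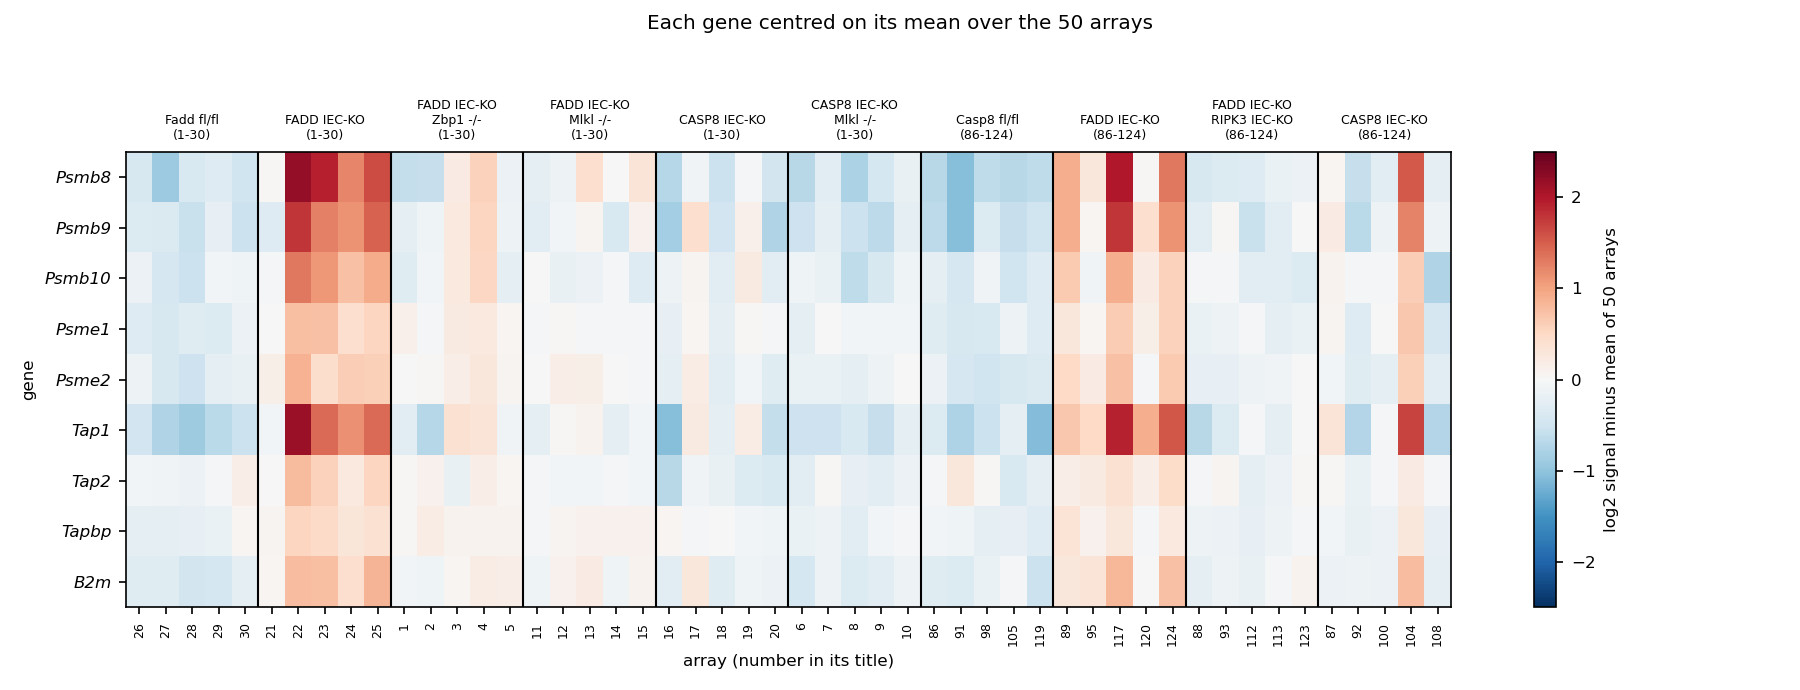
Log2 signal of each measured gene minus its mean over the 50 arrays (colour scale, red higher and blue lower), with arrays along the horizontal axis by group and title number, and genes on the vertical axis. Arrays 22 to 25, 117, 124 and 104 are red across Psmb8, Psmb9 and Tap1, and array 21 is pale beside the rest of its group.

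Taking the mean of 5 arrays, FADD IEC-KO of arrays 1 to 30 was highest and FADD IEC-KO of arrays 86 to 124 next for all 9 genes. Between these neighbours, 0 of 9 genes were called by limma (0.390% of all genes in either direction), with differences of -0.50 to -0.11. At an unadjusted limma p under 0.05, 1 of 9 was lower in arrays 86 to 124, against 6.38% of all genes. FADD IEC-KO Zbp1 -/- took the third to the fifth place for every gene, and CASP8 IEC-KO of arrays 86 to 124 the third to the sixth. The order of the other groups differed between genes, with Casp8 fl/fl lowest for 6 of 9 genes and Fadd fl/fl for Tap1 and B2m. CASP8 IEC-KO differed between the blocks in 0 of 9 genes by limma (0.0154% of all genes called in either direction). At an unadjusted limma p under 0.05, 1 of 9 was higher in arrays 86 to 124, against 6.38% of all genes. The floxed groups differed in 0 of 9 by limma (0.0359%), and in 0 of 9 at an unadjusted p under 0.05. Tap2 was lowest in CASP8 IEC-KO of arrays 1 to 30 (7.63 ± 0.236, SD, n = 5) below both floxed groups (7.94 ± 0.116 and 7.91 ± 0.253).

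The span between the highest and lowest group mean was 2.15 log2 units for Psmb8, 1.88 for Tap1, 1.69 for Psmb9, 1.11 for Psmb10, 0.92 for B2m, 0.90 for Psme2, 0.80 for Psme1, 0.77 for Tap2 and 0.55 for Tapbp. These are spans of differences, and the levels of different genes were not compared. Over the 10 group means, each gene's Pearson correlation with the mean of the other 8 was 0.858 for Tap2, 0.941 for Tapbp and 0.967 to 0.992 for the rest. The points share the arrays and the FADD IEC-KO groups, and the correlation is a description.

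The arrays within FADD IEC-KO moved together across the genes. Array 21 was lowest of its group for 9 of 9 genes and array 22 highest for 8, with means over the 9 genes of 8.89, 10.15, 9.87, 9.60 and 9.83 for arrays 21 to 25. In the other block the means were 9.43, 9.09, 9.96, 9.11 and 9.71 for arrays 89, 95, 117, 120 and 124. On floxed arrays they were 8.43 to 8.68, so even the lowest FADD IEC-KO arrays lay above every floxed array in this mean.

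The constitutive counterparts moved less. Psmb6, the counterpart of Psmb9, rose by 0.26 ± 0.0792 (limma adjusted p 0.0169) in FADD IEC-KO against Fadd fl/fl and had a difference of 0.22 (limma adjusted p 0.0644) against Casp8 fl/fl. Psmb7, the counterpart of Psmb10, rose by 0.33 and 0.41 in the same comparisons. Psmb5, the counterpart of Psmb8, was not analysed here. The log2 difference between Psmb9 and Psmb6 on the same array was larger in FADD IEC-KO than in the floxed group by 1.20 ± 0.383 (arrays 1 to 30, exact permutation p 0.0476, adjusted 0.127) and by 1.27 ± 0.285 (arrays 86 to 124, exact permutation p 0.00794, adjusted 0.0847).

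For Psmb10 and Psmb7 the corresponding changes were 0.73 ± 0.251 (exact permutation p 0.0317, adjusted 0.127) and 0.35 ± 0.154 (exact permutation p 0.0714, adjusted 0.163). RIPK3 co-deletion lowered the Psmb9 and Psmb6 difference by 1.05 on the log2 scale (exact permutation p 0.00794, adjusted 0.0847), with no overlap of the groups. None of the 32 two-sided exact tests over both pairs passed after adjustment, and 0.00794 is the smallest p that 5 against 5 can give. A limma contrast of the same differences passed in 12 of 32, and without array 21 the exact test passed in 11 of 32.

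**Figure D4:**
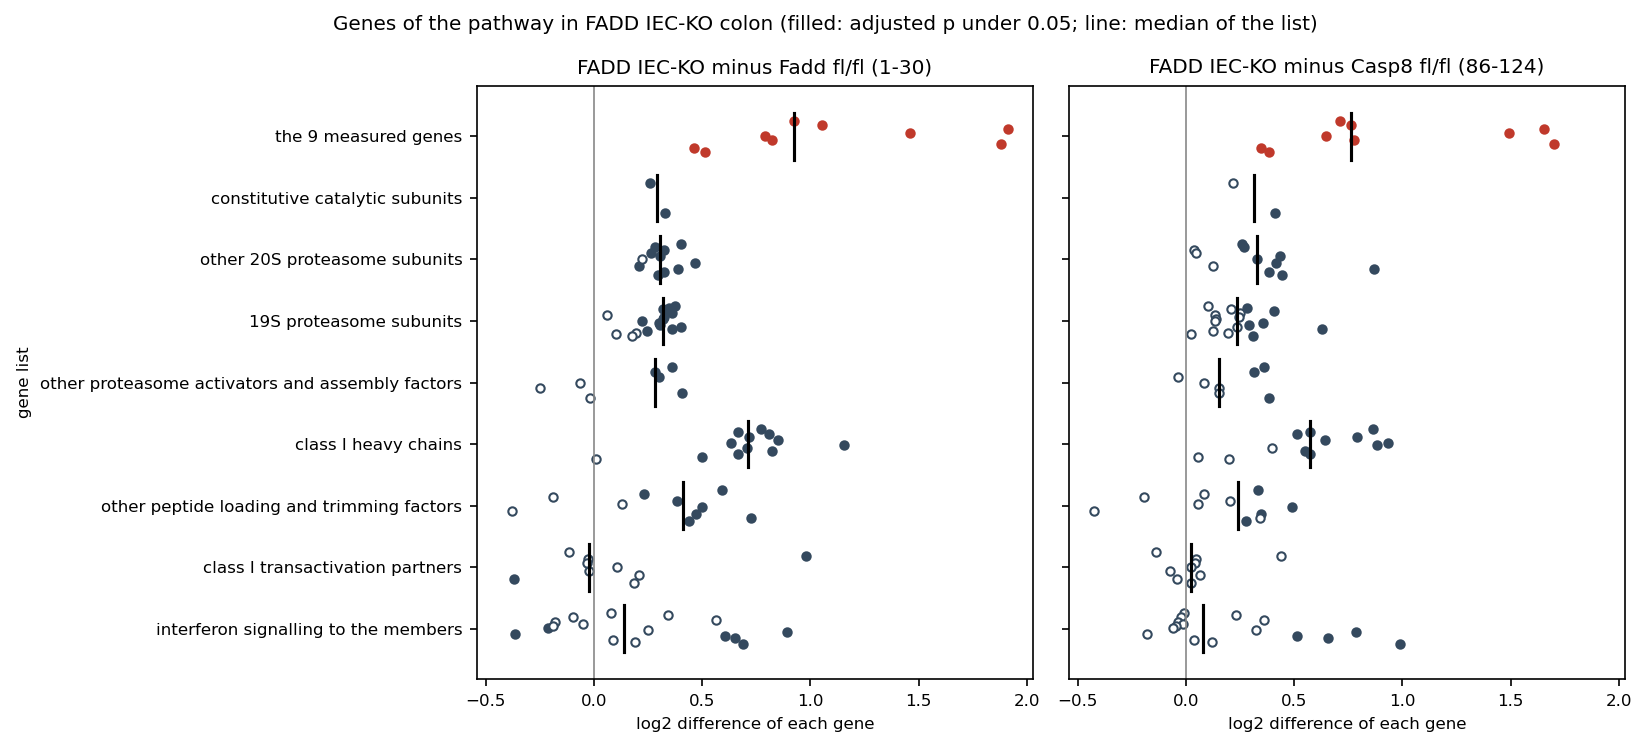
Log2 difference of each gene (horizontal axis) in the gene lists of the pathway (vertical axis) for FADD IEC-KO minus the floxed control in each title block; points are genes, filled where the adjusted p was under 0.05, and vertical lines are list medians. The medians of the 9 measured genes, 0.92 and 0.76, lie to the right of those of every other list shown.

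Counts of called genes in the rest of the proteasome differed between the blocks, and list medians were below that of the members. Beside the counts of rises in these lists and those that follow, 8.59% of all genes were called higher in arrays 1 to 30. In arrays 86 to 124 that share was 6.80%. Of the other 20S barrel subunits, 10 of 11 rose in FADD IEC-KO against Fadd fl/fl (median 0.30), among them Psma1 (0.40), Psma7 (0.47) and Psmb3 (0.32), and 8 of 11 rose against Casp8 fl/fl (median 0.33), led by Psmb2 at 0.87 ± 0.0983 (limma adjusted p 2.22e-07). Of the 19S cap subunits, which recognise and unfold substrates, 13 of 17 and 6 of 17 rose (medians 0.32 and 0.23). Psmc1 (0.37) and Psmd2 (0.40) had the smallest adjusted p in arrays 1 to 30, and Psmd3 (0.63) in arrays 86 to 124. Of the other activators and assembly factors 4 of 7 and 3 of 7 rose. Pomp, the chaperone of proteasome assembly, rose by 0.36 in each block.

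Psmb2 and Psmd3 also rose in CASP8 IEC-KO against Casp8 fl/fl, by 0.47 and 0.49, as did Psmb3 (0.36), Pomp (0.36) and Psmg4 (0.36). In that comparison 2 of 11 other 20S subunits, 1 of 17 19S subunits and 2 of 7 activators and assembly factors passed, and 0 of 9 of the immunoproteasome and loading genes. Among all genes 2.46% were called in either direction. The comparison shares its floxed arrays with FADD IEC-KO of the same block.

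Class I heavy chains, the proteins that hold the peptide, rose with their light chain: 11 of 12 in arrays 1 to 30 (median 0.71) and 9 of 12 in arrays 86 to 124 (median 0.57). H2-D1 rose by 0.77 and 0.86, H2-K1 by 0.66 and 0.57, and H2-Q4 by 1.16 and 0.88, while H2-T3 had differences of 0.01 and 0.20. Genes of the H2-Q and H2-T families are close copies of each other, so values of single members are uncertain. Against FADD IEC-KO, heavy chains fell in 8 of 12 with Zbp1 loss, 8 of 12 with Mlkl loss and 2 of 12 with RIPK3 loss (H2-D1 and H2-Q2). The shares of all genes called lower were 5.14%, 2.93% and 0.595% in the same order.

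Other loading and trimming factors rose in 7 of 10 and 4 of 10. Calr (calreticulin, a chaperone of the loading complex) rose by 0.59 and 0.33, Pdia3 (ERp57, its disulphide isomerase) by 0.47 and 0.35, and Uggt1, the glucosyltransferase of glycoprotein quality control, by 0.44 and 0.28. Tapbpl, the tapasin relative TAPBPR, rose by 0.72 in arrays 1 to 30 and had a difference of 0.34 in the other block. Of the transactivation partners 1 of 9 rose and 1 of 9 fell in arrays 1 to 30 (medians -0.02 and 0.02 in the blocks). These counts are near the shares of all genes called there, 8.59% higher and 10.1% lower. Ciita, the class II transactivator and relative of Nlrc5, rose by 0.98 ± 0.215, with 0.44 in arrays 86 to 124 (limma adjusted p 0.186), and Rfxank fell by 0.37.

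Of 16 measured genes of interferon signalling, 4 rose and 2 fell in arrays 1 to 30 and 4 rose in arrays 86 to 124 (medians 0.14 and 0.08). The shares of all genes were 8.59% higher and 10.1% lower in arrays 1 to 30, and 6.80% higher in arrays 86 to 124. The count of falls is near its share. Irf1, a transcription factor induced by interferon gamma that acts on several of the members, read 9.51 to 10.74 in FADD IEC-KO against 8.81 to 9.44 in Fadd fl/fl, with no overlap, and rose by 0.89 and 0.79 in the blocks. Stat2 rose by 0.69 and 0.99 and Irf8 by 0.61 and 0.51, and Irf2, a repressor at the same elements, fell by 0.36 in arrays 1 to 30. Irf1 fell back with the members, by 0.65 with Zbp1 loss and 0.89 with Mlkl loss. Irf9 was the 1 gene of this list still called higher in FADD IEC-KO Mlkl -/- than in the floxed group (0.79 ± 0.175, limma adjusted p 0.0366).

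Genes were ranked by likeness to the members, leaving out the members themselves and placeholder symbols (Gm or LOC with a number, or Rik). Among the genes ranked, those whose group means were most like the mean of the members were Igtp (Pearson r 0.992 over 10 group means), Bcl2a1b (0.992), H2-Eb1 (0.991), Irgm1 (0.99), H2-DMa (0.989), H2-DMb1 (0.985), H2-Aa (0.984), Slc15a3 (0.983), Mpeg1 (0.981) and H2-M3 (0.979). Igtp and Irgm1 are interferon-inducible GTPases, H2-Eb1 and H2-Aa are chains of class II molecules, H2-DMa and H2-DMb1 exchange peptides on them, and H2-M3 is a class I molecule. Igtp had a span of 2.62 between group means, wider than that of Psmb8, and H2-DMb1 one of 2.38. The 3 most like Psmb8 were Bcl2a1b (0.994), Slc15a3 (0.991) and H2-Eb1 (0.99), and the 3 most like Tapbp were Laptm5 (0.985), Fcgr2b (0.984) and Mpeg1 (0.982).

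Markers of other cell types were counted in the same comparisons, where 8.59% of all genes were called higher and 10.1% lower in arrays 1 to 30, and 6.80% higher and 4.25% lower in arrays 86 to 124. In FADD IEC-KO against Fadd fl/fl, 6 of 6 neutrophil markers rose (median 1.88, with S100a8 by 3.82), 7 of 11 T and cytotoxic lymphocyte markers (median 0.68, with Gzma by 1.26), 6 of 7 macrophage markers (median 0.57, with C1qa by 0.81), 2 of 5 B and plasma cell markers and 1 of 6 dendritic cell markers, while 6 of 6 smooth muscle and 3 of 5 fibroblast markers fell. Epithelial markers rose in 3 of 12 (Krt20 by 0.52) and fell in 2 of 12 (Car1 by 1.06). In arrays 86 to 124 the counts were 1 of 6 neutrophil, 1 of 11 lymphocyte and 4 of 7 macrophage markers higher, with 2 of 6 smooth muscle, 2 of 6 endothelial and 2 of 5 fibroblast markers lower.

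Neutrophil list means were 4.76 to 9.48 per array in FADD IEC-KO of arrays 1 to 30 against 4.40 to 4.57 in Fadd fl/fl, and 4.49 to 8.24 against 4.57 to 4.76 in the other block. T and cytotoxic lymphocyte list means were 5.02 to 5.89 against 4.80 to 5.00, and 4.93 to 5.97 against 4.96 to 5.17. Within arrays 1 to 30, arrays 22 and 23 had the highest neutrophil means, 9.48 and 7.75, and the highest member means, while arrays 24 and 25 had neutrophil means of 5.34 and 5.41 and member means of 9.60 and 9.83. Macrophage list means were 7.28 to 7.96 against 6.89 to 7.56 in arrays 1 to 30, and 6.90 to 7.89 against 6.98 to 7.29 in the other block. Array 89, with a member mean of 9.43, had a neutrophil mean of 4.56, below the Casp8 fl/fl range, a lymphocyte mean of 5.17, at the top of that range, and a macrophage mean of 7.45, above it. The files hold no detection calls, so no marker could be called absent.

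Without arrays 22 and 23 the members remained higher than in Fadd fl/fl in 8 of 9 genes, where 682 genes in all were called in either direction against 3650 with them. Against that reduced group the co-deletions with Zbp1 or Mlkl had 0 of 9 genes called. Calls among all genes, in either direction, fell there to 121 and 8, from 2096 and 1140 with both arrays. The part of immune cell content in the members' levels was not tested.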

How the data were processed

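RNA (100 ng) from whole colon was labelled and hybridised to Affymetrix arrays, 1 per mouse. The authors deposited log2 signals per probe set, made with Affymetrix Expression Console and Transcriptome Analysis Console per the submitters' processing notes; which normalization they applied was not given in the sources used here. Of 22142 probe sets, 19527 had 1 symbol in the probe-to-gene table, 0 several and 2615 none, and the probe set with the highest mean was kept for each of 19494 genes. A linear model with 1 mean per group over all 50 arrays was fitted with limma 3.58.1 in R 4.3.3 (40 residual degrees of freedom), with Benjamini-Hochberg adjustment over all genes and a threshold of 0.05. The fit was tested on simulated data with 1 SD per gene in all groups, which does not cover unequal spread between groups. The labels give 1 array per mouse but no litter, so p-values measure the spread between these mice.

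Groups came from the labels. The members and the gene lists were chosen with earlier results of these data known. Beyond the members, each list's genes with the smallest adjusted p, up to 4, were named, or where none passed the 2 with the largest difference, and Psmb6 and Psmb7 always. H2-T3, H2-K1 and H2-Q4 in arrays 86 to 124 and genes repeated across comparisons were named after their values were seen. Motifs were matched as letters. Alternatives covered median centring, quantile normalization, the arrays compared alone, the mean of probe sets, trended and robust moderation, the brightest 60% of genes, variance weights per group, a series term, and each array left out. The series term was fitted for 2 comparisons. Precision is limited by 5 arrays per group.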

Additional observations from a re-analysis of the deposited data

Results flagged for a closer look

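Of 90 sets of 5 arrays (9 genes in 10 groups), 6 held an array whose gap to its nearest neighbour exceeded Dixon's limit, and chance alone gives about 1 in 20. CASP8 IEC-KO array 104 was far above the other 4 for Psme2 (9.26 against 8.36 to 8.60), Tapbp (9.85 against 9.37 to 9.49) and B2m (12.79 against 11.78 to 11.89). Tapbp was high on Fadd fl/fl array 30 (9.61 against 9.34 to 9.41) and low on FADD IEC-KO Mlkl -/- array 11 (9.52 against 9.64 to 9.69). Psmb8 was low on Casp8 fl/fl array 91 (6.53 against 6.91 to 6.98). None of the 36 tests of a difference between effects (9 genes in 4 interactions) passed the limma test.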

How the results depend on the processing

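No paired analysis was possible because no replicate number was shared between groups. No difference changed sign in a call. With each array left out in turn, FADD IEC-KO had 9 to 9 genes called against Fadd fl/fl and 8 to 9 against Casp8 fl/fl; CASP8 IEC-KO had 0 to 1 against Casp8 fl/fl and, against FADD IEC-KO, 9 to 9 in arrays 1 to 30 and 0 to 6 in arrays 86 to 124. The counts against FADD IEC-KO were 1 to 9 for Zbp1 loss, 2 to 9 for Mlkl loss and 0 to 7 for RIPK3 loss. Calls among all genes varied there too, from 835 to 3001, 388 to 2156 and 24 to 411 in the same order. FADD IEC-KO Zbp1 -/- against Fadd fl/fl had 0 to 1, the Mlkl interaction and the CASP8 against FADD interaction 0 to 1 each, and the exact tests of subunit pairs 0 to 11. The other comparisons stayed at 0.

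With the compared arrays alone, the counts were 0 for CASP8 IEC-KO against FADD IEC-KO (arrays 1 to 30) and for the Zbp1, Mlkl and RIPK3 co-deletions against FADD IEC-KO, and 1 each for the Zbp1 and Mlkl co-deletions against Fadd fl/fl (Psme1 and Tap1). All genes called for FADD IEC-KO went from 3650 to 1784 against Fadd fl/fl and from 2154 to 787 against Casp8 fl/fl. For CASP8 IEC-KO against FADD IEC-KO (arrays 1 to 30) they went from 1315 to 6. For the Zbp1, Mlkl and RIPK3 co-deletions against FADD IEC-KO they went from 2096, 1140 and 147 to 184, 51 and 22. Quantile normalization gave 2 for RIPK3 loss. Variance weights per group gave 2 for RIPK3 loss and 3 for FADD IEC-KO Zbp1 -/- against Fadd fl/fl, where the brightest 60% of genes gave 1. Without arrays 22 and 23, CASP8 IEC-KO against FADD IEC-KO had 1 and the Zbp1 and Mlkl co-deletions 0 each, with 18, 121 and 8 of all genes called. The moderated t-test in place of permutation passed in 12 of 32 tests of subunit pairs. The causes were not tested. Across these settings, 1486 single-gene or subunit-pair values stayed as in the main fit, called or not called. A call was gained by 24 and lost by 69.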
